A study of Mus musculus with 8 samples.

Results

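The gene of the transcription factor p53, the genes that regulate it and a set of its target genes were followed in mouse morulae cultured with or without A485. The 32 genes were chosen by symbol, as genes known to encode p53, its regulators or products of its targets, and all 32 had a row among the 18257 genes of the deposited table. All 32 also passed the filter on low counts that left 12936 genes for testing. The rule takes gene symbols only and no measured value, but the genes were chosen with earlier results of these data known.

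p53 is held at a low level in unstressed cells by the ubiquitin ligase Mdm2 and by its relative Mdm4, which binds and masks the activation domain of p53. DNA damage and other stresses free p53 from this control, and p53 then binds DNA elements near its target genes and recruits the acetyltransferases p300 and CBP, which also acetylate p53 itself. The targets include Mdm2, which closes a negative feedback loop, along with genes that stop the cell cycle, adjust metabolism and nucleotide supply, and promote cell death. Preimplantation mouse embryos express p53 and can respond to damage through it.

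The series, by its title, asks how inhibition of p300 and CBP bears on DNA repair and apoptosis in mouse embryos. The control group was cultured with 0.1% DMSO and the treated group with 2 µM A485, which blocks the catalytic site of the p300 and CBP acetyltransferases. Both groups are labelled wild-type morulae, and the culture protocol began at the 4-cell stage and ended at the blastocyst. Each group had 4 libraries of polyadenylated RNA, and each library pooled 3 zona-free embryos as 1 biological replicate. A485 was dissolved in DMSO, and neither the strain nor the DMSO content of the A485 medium is stated in the labels. The labels do not tie pools to litters or days of culture, so p-values measure the spread between these pools.

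Total estimated counts per library were 23641781 to 25677701. The TMM factors that scale library sizes separated the groups, at 0.877 to 0.935 in control and 0.996 to 1.21 in A485. All 12 morula marker genes were detected and tested, and 9 were lower and 2 higher in A485. Pou5f1 lay at 746 to 968 CPM (counts scaled to library size, with TMM factors) in control and at 213 to 386 CPM in A485, while the trophectoderm factor gene Cdx2 lay at 41.4 to 63.7 and at or under 3.2 CPM. The 2 higher markers were the keratin genes Krt8 and Krt18, and Cdh1 was in neither count. Krt8 lay at 304 to 427 CPM in control and 656 to 1734 CPM in A485, and Krt18 at 435 to 627 and 649 to 1570 CPM. The summed level of 10 cumulus and granulosa markers was 0 to 0.176 CPM in control and 1.03 to 5.62 CPM in A485. Of these markers Inha was at 0 in every control library and at 0.813 to 2.26 CPM in A485, and Hsd3b1 and Inhba, also at 0 in every control library, reached 2.13 and 0.575 CPM in A485 and were at 0 in A485 replicate 4. Tnfaip6 reached 1.53 CPM in A485, the other 6 markers stayed at or under 0.306 CPM in every library, and their part in the results was not tested. The highest sum in any library was 0.837 CPM for 5 sperm markers and 3.03 CPM for 6 fibroblast markers. A485 libraries differed more among themselves than control libraries did. In bulk RNA of pooled embryos, fewer cells of a type and less RNA per cell cannot be told apart.

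Of the 32 genes, 16 rose with A485, 4 fell and 12 did not pass an adjusted p of 0.05 in edgeR (quasi-likelihood test, p adjusted by Benjamini and Hochberg's method over all tested genes). Over all tested genes 29.7% rose and 25.0% fell, and 54.7% changed in either direction. The median log2 fold change was 0.79 over the 32 genes and 0.09 over all tested genes. The fold change was above 0 for 27 of the 32. In CPM, the libraries of the groups did not overlap for 15 of the 32 genes, 11 with A485 above and 4 below, against 51.5% of all tested genes, 26.9% above and 24.6% below. Overlap depends on the scaling, and it is given in CPM below unless stated. In TPM (a level that corrects for transcript length) Ppm1d, Btg2, Rrm2b, Polk, Perp and Zmat3 also lay wholly above control, and Mdm4 overlapped. The share over all genes was not counted in TPM. The share that rose was thus above the background and the share that fell, 12.5%, below it. Because the genes were chosen with earlier results of these data known, this comparison is a description only.

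Without control replicate 4 only 9 of the 32 genes rose, a share near the 26.7% of all genes that did. The median log2 fold change was then 0.71 over the 32 genes and 0.12 over all genes. When libraries were scaled by total counts, the median of all genes moved to 0.37 and that of the 32 genes to 1.08, so the distance between the medians stayed at 0.71. The counts were then 22 higher and 3 lower, against 38.1% and 17.8% of all genes, and the share of higher genes among all called genes moved from 54.2% to 68.2%. The calls of 11 of the 20 changed genes held in all 19 alternative settings. These were the rises of Mdm2, Ccng1, Gadd45a, Gadd45g, Plk3, Dcxr, Ak1 and Trp53inp1 and the falls of Trp53, Sesn1 and Tigar.

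**Figure D1:**
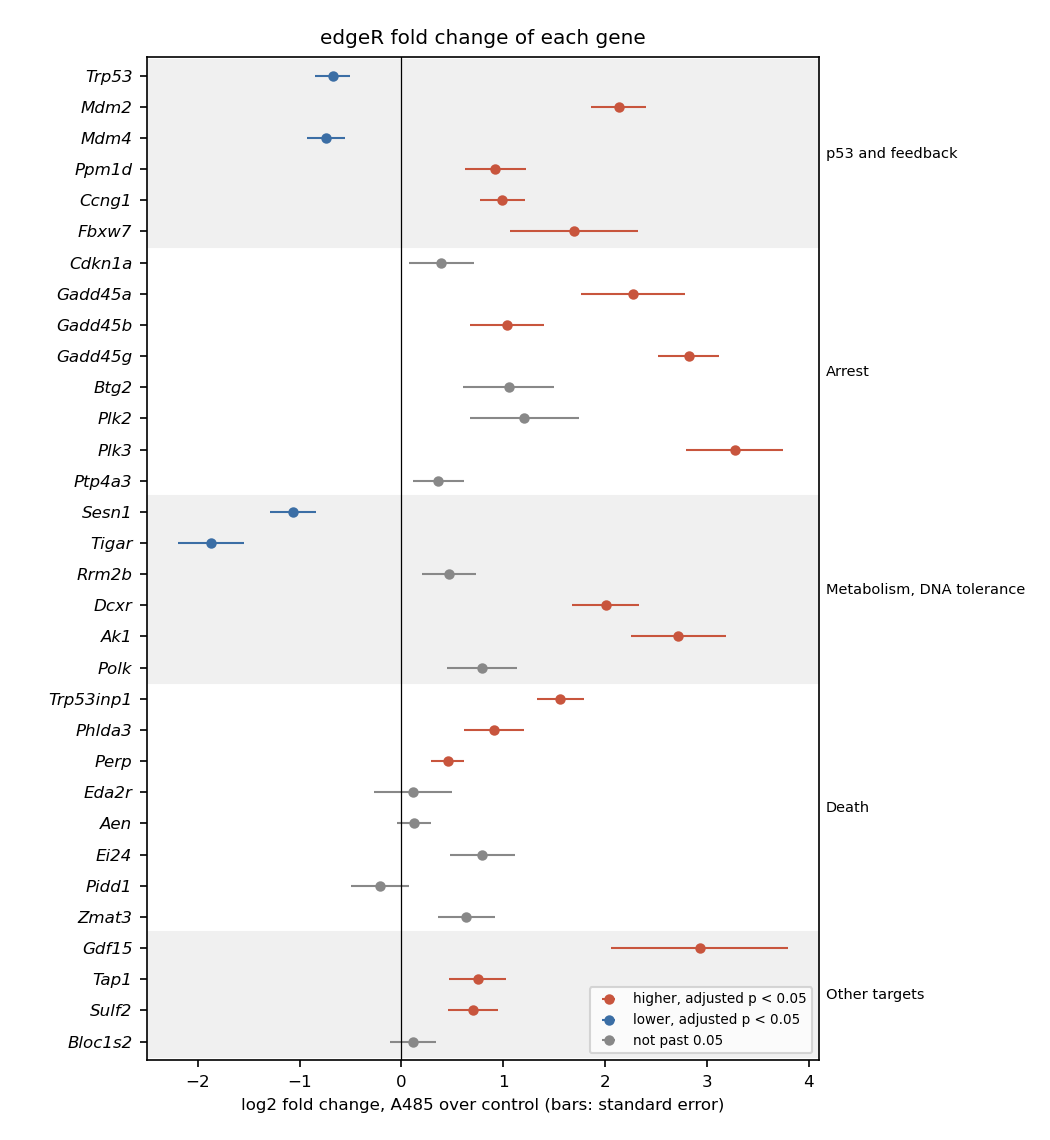
Log2 fold change of A485 over control from edgeR (horizontal axis) for each of the 32 genes (vertical axis), grouped by role, with bars for the standard error. The 16 red points rose, the 4 blue points fell and the 12 grey points did not pass an adjusted p of 0.05.

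Trp53, the gene of p53, fell while Mdm2 rose. Trp53 had 143, 142, 160.1 and 149 CPM in control replicates 1 to 4 and 123, 97.1, 77.5 and 73.5 CPM in A485 replicates 1 to 4. Every A485 library was below every control library, and the log2 fold change was -0.68 with an SE of 0.17 and an edgeR adjusted p of 0.00672. Over the alternative settings it was -0.99 to -0.40 (edgeR, DESeq2 and limma-voom adjusted p of 0.00012 to 0.0422). Mdm2 had 47.6, 26.0, 58.0 and 31.5 CPM in the 4 control libraries and 149, 157, 241 and 169 CPM in the 4 A485 libraries. The lowest A485 value was thus far above the highest control value, and the log2 fold change was 2.13 with an SE of 0.27 and an edgeR adjusted p of 0.000146. Trp53 lies on chromosome 11 from 69580348 to 69591873 and Mdm2 on chromosome 10 from 117688875 to 117710758 (GRCm38.p6).

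Mdm4, the relative of Mdm2 that inhibits p53 without strong ligase activity of its own, moved opposite to Mdm2. It had 17.8, 16.9, 24.8 and 18.6 CPM in control and 11.3, 13.8, 12.1 and 9.61 CPM in A485, again without overlap, for a log2 fold change of -0.74 with an SE of 0.19 and an edgeR adjusted p of 0.00686. Its call was lost under total-count scaling (edgeR adjusted p = 0.0927). Within each library the ratio of Mdm2 to Mdm4 in TPM (a level that corrects for transcript length) was 3.73 to 6.47 in control and 27.6 to 48.4 in A485. The corresponding ratio of Mdm2 to Trp53 was 0.102 to 0.201 in control and 0.665 to 1.73 in A485. This ratio was under 1 in every control library and in A485 replicates 1 and 2, and above 1 in A485 replicates 3 and 4.

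The remaining 3 genes of the feedback group rose. With Mdm2, 4 of its 6 genes were thus higher, against 29.7% of all tested genes, and 2 were without control replicate 1, 3 or 4, without A485 replicate 3 or in limma-voom. Ccng1, encoding the cyclin G1 that recruits a phosphatase to Mdm2, had 103 ± 28.8 CPM in control and 204 ± 41.8 CPM in A485 (SD, n = 4 each), with no overlap and a log2 fold change of 0.99 with an SE of 0.22 and an edgeR adjusted p of 0.00376. Ppm1d, encoding the phosphatase Wip1 that switches off damage signalling, had 4.58 to 5.10 CPM in control and 4.95 to 14.1 CPM in A485. Its groups overlapped because A485 replicate 4 was at 4.95 CPM, and its log2 fold change was 0.92 with an SE of 0.30 and an edgeR adjusted p of 0.0228. The call of Ppm1d was lost without A485 replicate 3 or without control replicate 1, 3 or 4 (edgeR adjusted p of 0.0501 to 0.0662), and in limma-voom (0.0525).

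Fbxw7, the substrate receptor of a ubiquitin ligase for cyclin E and Myc, was near the limit of detection. It had 0.617, 0.181, 0.667 and 0.742 CPM in control and 0.944, 0.951, 4.05 and 1.22 CPM in A485, so that A485 replicate 3 stood apart. The log2 fold change was 1.69 with an SE of 0.63 and an edgeR adjusted p of 0.0415, and it was 0.91 without A485 replicate 3 (edgeR adjusted p = 0.183). The call was also lost without any single control replicate (edgeR adjusted p of 0.0639 to 0.0898), in limma-voom (0.0782) and without a filter (0.0503).

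Promoter sequences of the RefSeq tables (GRCm38.p6) were found for 27 of the 32 genes, all but Ptp4a3, Rrm2b, Trp53inp1, Perp and Zmat3. The 250 bases before each annotated start were searched on both strands for the p53 half-site consensus, a palindromic pattern of 10 bases of which a p53 element holds a pair. Only exact matches to RRRCWWGYYY were counted (R is A or G, W is A or T, Y is C or T), with no mismatch allowed. A half-site was present for 10 of the 27 genes, or 37%, and for 8.2% of all 27025 genes with a window. By window it was present in 10 of 39 for these genes and in 7.13% of all. The genes were picked as p53, its regulators or its known targets, so this comparison is a description only. The 10 genes were Mdm2, Ccng1, Ppm1d and Gadd45a, which rose, Trp53 and Sesn1, which fell, and Cdkn1a, Aen, Ei24 and Polk, which did not pass. Of the 14 genes with a window that rose, 4 thus held a half-site, and of the 9 that did not pass, 4 did. Shown here are the windows of Mdm2 and Ccng1, whose messages rose, and of Cdkn1a. Cdkn1a was the only one of the 27 genes with a pair of exact half-sites separated by at most 13 bases. Of all 32851 windows 0.0639% held such a pair. Capitals mark the exact half-sites.
Mdm2, chr10:117710759-117711008, minus strand: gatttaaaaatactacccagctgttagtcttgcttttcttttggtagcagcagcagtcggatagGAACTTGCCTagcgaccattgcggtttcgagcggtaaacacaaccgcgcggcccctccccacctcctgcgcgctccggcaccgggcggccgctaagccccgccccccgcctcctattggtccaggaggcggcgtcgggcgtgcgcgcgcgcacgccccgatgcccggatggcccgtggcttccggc
Ccng1, chr11:40755287-40755536, minus strand: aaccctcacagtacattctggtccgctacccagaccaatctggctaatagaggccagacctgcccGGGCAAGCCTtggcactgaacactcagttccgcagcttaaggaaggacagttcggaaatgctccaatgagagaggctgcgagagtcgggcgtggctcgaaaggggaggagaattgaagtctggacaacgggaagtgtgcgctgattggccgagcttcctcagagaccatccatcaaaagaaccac
Cdkn1a, chr17:29090729-29090978, plus strand: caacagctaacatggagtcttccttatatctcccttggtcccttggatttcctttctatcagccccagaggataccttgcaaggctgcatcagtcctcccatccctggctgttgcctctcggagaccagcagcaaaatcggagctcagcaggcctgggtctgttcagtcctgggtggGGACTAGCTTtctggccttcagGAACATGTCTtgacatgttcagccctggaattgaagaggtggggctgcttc

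The half-site of Mdm2, GAACTTGCCT, began 186 bases before the start, and that of Ccng1, GGGCAAGCCT, began 185 bases before it. The window of Cdkn1a belongs to the upstream one of its 2 annotated starts, with GGACTAGCTT and GAACATGTCT separated by 12 bases. Adjoining stretches that miss the pattern at a single base were not counted or marked. They include agacctgccc directly before GGGCAAGCCT in Ccng1 and tgacatgttc directly after GAACATGTCT in Cdkn1a. The search therefore does not show that Ccng1 lacks a pair. Ppm1d held GAGCTTGCTC at 132 bases, Gadd45a GGGCTAGCCC at 40 bases and Trp53 itself GGACTTGCCC at 75 bases before the start. A match describes these letters and is not a measured binding site. p53 elements also lie in introns and at a distance, which were not searched.

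Among the 8 genes that act on the cell cycle, 4 rose and 0 fell, while Cdkn1a, the inhibitor of cyclin-dependent kinases through which p53 halts the cycle in G1, did not pass. Over all tested genes 29.7% rose and 25.0% fell. Cdkn1a had 189, 57.7, 181 and 134 CPM in control and 227, 168, 203 and 140.2 CPM in A485. Control replicate 2 was far below the other control libraries, and the remaining control libraries lay within the A485 range or just under it. The log2 fold change was 0.39 with an SE of 0.32 and an edgeR adjusted p of 0.323, and 0.16 to 0.67 over the alternatives, none of which called it (edgeR, DESeq2 and limma-voom adjusted p of 0.107 to 0.621). An unstranded count of Cdkn1a could include an opposite-strand transcript that covers 10.04% of its exonic bases.

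The 3 Gadd45 genes, which encode small stress proteins that bind the p38 kinase pathway, Cdk1 and the replication clamp, all rose. Gadd45g had 7.84, 5.37, 8.38 and 6.36 CPM in control and 28.4, 39.0, 60.4 and 69.8 CPM in A485, a clear gap, with a log2 fold change of 2.82 with an SE of 0.30 and an edgeR adjusted p of 5.5e-05. Gadd45a had 3.43, 2.21, 3.33 and 5.10 CPM in control and 6.03, 12.4, 37.0 and 12.8 CPM in A485. Its groups did not overlap, but A485 replicate 1 was only just above control replicate 4 and A485 replicate 3 was far above the rest. The log2 fold change of Gadd45a was 2.28 with an SE of 0.51 and an edgeR adjusted p of 0.00401, and 1.57 without A485 replicate 3. An opposite-strand transcript covers 19.5% of the exonic bases of Gadd45a, and whether the libraries were stranded is not stated in the labels.

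Gadd45b was the least changed of the 3 and its groups overlapped. It had 9.12, 9.84, 11.2 and 18.9 CPM in control and 40.1, 20.6, 28.2 and 11.9 CPM in A485, with a log2 fold change of 1.04 with an SE of 0.36 and an edgeR adjusted p of 0.0333. Here A485 replicate 1 was the highest library and A485 replicate 4 was below control replicate 4, the reverse of their order for Gadd45g. Gadd45b no longer passed when control replicate 1, 2 or 3, or A485 replicate 1 or 3, was left out (edgeR adjusted p of 0.0673 to 0.0946) and in limma-voom (0.0503).

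Plk3, a polo-like kinase that phosphorylates p53 and checkpoint proteins, had the largest fold change of the 32 genes. It had 6.39, 21.3, 8.50 and 7.0 CPM in control and 57.5, 103, 172 and 84.8 CPM in A485, with a log2 fold change of 3.28 with an SE of 0.48 and an edgeR adjusted p of 0.000419. Control replicate 2 was the highest control library here, unlike for most of the other genes. Plk2, a related kinase with a role in centriole duplication, had 23.5, 4.15, 29.8 and 19.2 CPM in control and 28.4, 38.0, 76.8 and 33.7 CPM in A485. Its log2 fold change of 1.21 with an SE of 0.53 and an edgeR adjusted p of 0.0832, did not pass, and it did in DESeq2 (adjusted p = 0.0272), in limma-voom (0.0451) and under total-count scaling (0.0429).

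Btg2, an antiproliferative gene whose product recruits the deadenylase that shortens poly(A) tails, had a similar pattern with 23.2, 5.46, 34.2 and 14.6 CPM in control and 35.7, 32.4, 51.0 and 41.6 CPM in A485. Only control replicate 3 lay above the lowest A485 library, and the log2 fold change was 1.05 with an SE of 0.45 and an edgeR adjusted p of 0.0713. It passed without control replicate 3 (edgeR adjusted p = 0.0200), in DESeq2 (0.0301) and in limma-voom (0.0261). Btg2 also passed with upper-quartile factors (edgeR adjusted p = 0.0488), under total-count scaling (0.0327) and under a minimum of 5 CPM in 4 libraries (0.0430). Ptp4a3, a phosphatase gene linked to proliferation, had 10.1 to 17.7 CPM in control and 10.9 to 20.3 CPM in A485, with a log2 fold change of 0.36 with an SE of 0.25 and an edgeR adjusted p of 0.243.

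**Figure D2:**
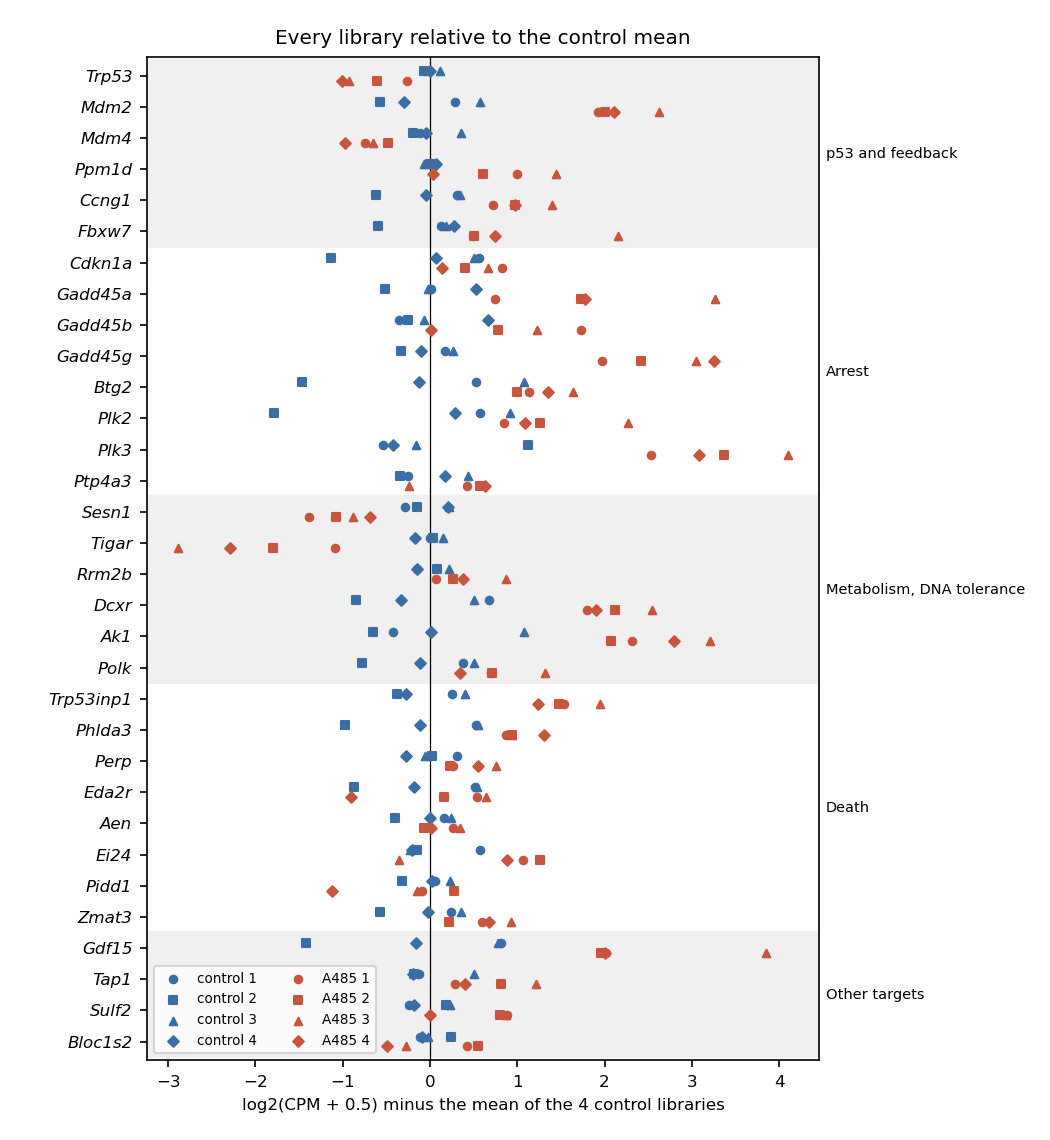
Each library's log2(CPM + 0.5) minus the mean of the 4 control libraries (horizontal axis) for each gene (vertical axis), blue for control and red for A485, with a symbol for each replicate number. Red symbols lie right of all blue ones for Mdm2, Plk3, Gadd45g and Dcxr and left of them for Trp53, Mdm4, Sesn1 and Tigar, and the blue square of control replicate 2 is the leftmost blue symbol for 21 genes.

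Of the 6 genes of metabolism, nucleotide supply and damage tolerance, 2 rose, 2 fell and 2 did not pass, shares near the 29.7% and 25.0% of all tested genes. Under total-count scaling 4 of the 6 were higher, where 38.1% of all genes were. Tigar, whose product is a sugar bisphosphatase that slows glycolysis, fell the most of the 32 genes. It had 457, 468, 507 and 407 CPM in control and 216, 131, 61.3 and 93.3 CPM in A485. Control libraries were close together, whereas A485 libraries were spread over 61.3 to 216 CPM, all below control. The log2 fold change was -1.87 with an SE of 0.33 and an edgeR adjusted p of 0.000921, and without A485 replicates 1 and 2 it was -2.59. In TPM Tigar went from 124 ± 14.9 in control to 40.7 ± 17.8 in A485 (SD, n = 4 per group).

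Sesn1, encoding a sestrin that restrains mTORC1, also fell. It had 8.98, 9.93, 12.9 and 12.8 CPM in control and 3.90, 4.98, 5.75 and 6.65 CPM in A485, without overlap, and a log2 fold change of -1.07 with an SE of 0.23 and an edgeR adjusted p of 0.00282. Dcxr, encoding the reductase of dicarbonyls and L-xylulose, rose from 51.7, 17.7, 45.9 and 25.5 CPM in control to 113, 141, 191 and 122 CPM in A485. Its log2 fold change was 2.01 with an SE of 0.33 and an edgeR adjusted p of 0.000654, and the lowest A485 library exceeded the highest control library. Ak1, the cytosolic adenylate kinase that balances ATP, ADP and AMP, had 1.41, 1.13, 4.92 and 2.09 CPM in control and 12.3, 10.4, 23.2 and 17.3 CPM in A485. The groups did not overlap, although control replicate 3 was above the other control libraries, and the log2 fold change was 2.72 with an SE of 0.47 and an edgeR adjusted p of 0.000850.

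Rrm2b, the p53-inducible small subunit of ribonucleotide reductase, and Polk, a DNA polymerase that bypasses lesions, did not pass. Rrm2b had 2.95 to 3.96 CPM in control and 3.53 to 6.53 CPM in A485, with a log2 fold change of 0.47 with an SE of 0.27 and an edgeR adjusted p of 0.158. Polk had 2.21 to 6.08 and 5.40 to 11.1 CPM, with a log2 fold change of 0.79 with an SE of 0.34 and an edgeR adjusted p of 0.0719. Both passed under total-count scaling (edgeR adjusted p = 0.0469 and 0.0304). Polk also passed with upper-quartile factors (edgeR adjusted p = 0.0479) and under a minimum of 5 CPM in 4 libraries (0.0419).

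Of the 8 genes tied to cell death, 3 rose, 0 fell and 5 did not pass, against 29.7% higher and 25.0% lower over all tested genes. The number that rose was 1 without control replicate 4 or without A485 replicate 4, and 5 with upper-quartile factors, with total-count scaling or under a minimum of 5 CPM in 4 libraries. Trp53inp1, encoding a nuclear protein that promotes p53 phosphorylation and autophagy, rose clearly. It had 19.5, 12.5, 21.7 and 13.4 CPM in control and 48.3, 46.4, 64.6 and 39.1 CPM in A485, with a log2 fold change of 1.56 with an SE of 0.23 and an edgeR adjusted p of 0.000306. The lowest A485 value was well above the highest control value.

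Phlda3, an inhibitor of Akt through its PH domain, had 137, 48.2, 139 and 87.5 CPM in control and 173, 182, 182 and 235 CPM in A485. The groups did not overlap, although control replicates 1 and 3 came near the A485 values, and the log2 fold change was 0.91 with an SE of 0.29 and an edgeR adjusted p of 0.0231. Phlda3 did not pass when replicate 4 of either group was left out (edgeR adjusted p = 0.0681 and 0.0598). Perp, encoding a tetraspan membrane protein of desmosomes, had 141 to 212 CPM in control and 201 to 290.1 CPM in A485, with overlap, and a log2 fold change of 0.45 with an SE of 0.17 and an edgeR adjusted p of 0.0391. Perp did not pass when control replicate 2, 3 or 4, or A485 replicate 3 or 4, was left out (edgeR adjusted p of 0.0630 to 0.129) and without a filter (0.0714).

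The other 5 genes of the group had log2 fold changes from -0.21 to 0.80 and did not pass. Aen, a nuclease that cuts DNA in dying cells, had 83.4 to 131 CPM in control and 105 to 141 CPM in A485 (log2 fold change 0.13 ± 0.17 (SE)). Eda2r, a receptor of the TNF receptor family, had 13.8 to 37.3 and 13.4 to 40.0 CPM (log2 fold change 0.11 ± 0.38 (SE)). Pidd1, which assembles a platform that activates a caspase, had 8.85 to 13.1 and 4.84 to 13.5 CPM (log2 fold change -0.21 ± 0.29 (SE)). For these 3 genes the A485 and control ranges overlapped broadly, and edgeR adjusted p was 0.538, 0.819 and 0.553.

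Zmat3, an RNA-binding protein gene, and Ei24, which encodes a membrane protein of the endoplasmic reticulum, had positive log2 fold changes of 0.64 ± 0.28 (SE) and 0.80 ± 0.32 (SE), with edgeR adjusted p of 0.0729 and 0.0592. Ei24 had 62.4, 37.7, 35.5 and 36.2 CPM in control and 87.7, 101, 32.6 and 77.4 CPM in A485, so 3 of the 4 A485 libraries were above all control libraries and A485 replicate 3 was below them. Without A485 replicate 3 its log2 fold change was 1.04 (edgeR adjusted p = 0.00299), and it also passed without control replicate 1 (0.0303). With all libraries Ei24 passed in DESeq2 (adjusted p = 0.0384) and with upper-quartile factors (edgeR adjusted p = 0.0377). It passed as well under total-count scaling (edgeR adjusted p = 0.0136) and under a minimum of 5 CPM in 4 libraries (0.0320). Zmat3 had 2.75 to 5.71 CPM in control and 5.16 to 8.74 CPM in A485. It passed under total-count scaling (edgeR adjusted p = 0.0234) and with upper-quartile factors (0.0431). Zmat3 also passed under the 5 CPM minimum (edgeR adjusted p = 0.0326) and without A485 replicates 1 and 2 (0.0434).

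Of 4 further targets 3 rose, where 29.7% of all tested genes did. The number was 0 without control replicate 4, and 1 when control replicate 1, or replicate 2 or 3 of A485, was left out or when no filter was used. Gdf15, a secreted stress cytokine of the TGF-beta family, had 1.85, 0, 1.79 and 0.696 CPM in control and 4.93, 4.72, 18.8 and 4.88 CPM in A485. It was at 0 counts in control replicate 2, and A485 replicate 3 was far above the other A485 libraries. The log2 fold change was 2.93 with an SE of 0.87 and an edgeR adjusted p of 0.0175, and 2.15 without A485 replicate 3. The call was lost without control replicate 4 (edgeR adjusted p = 0.0521) and without A485 replicates 3 and 4 (0.0918).

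Tap1, a subunit of the transporter that loads peptides for antigen presentation, and Sulf2, a sulfatase that edits heparan sulfate, rose with log2 fold changes of 0.75 ± 0.28 (SE) and 0.70 ± 0.25 (SE), with edgeR adjusted p of 0.0442 and 0.0326. Both overlapped between groups. Tap1 no longer passed when control replicate 1, 2 or 4 or A485 replicate 2 or 3 was left out (edgeR adjusted p of 0.0872 to 0.128), nor did Sulf2 when any library other than control replicate 2 or A485 replicate 4 was left out (0.0544 to 0.0962). Both were also lost without a filter (edgeR adjusted p = 0.0659 and 0.0550). Exons of Tap1 share 7.18% of their bases with Psmb9 on the opposite strand. Bloc1s2, encoding a subunit of the complex that sorts cargo to lysosome-related organelles, had 1054 to 1352 CPM in control and 815 to 1681 CPM in A485, with a log2 fold change of 0.11 with an SE of 0.23 and an edgeR adjusted p of 0.696. A485 replicates 1 and 2 were above all control libraries and A485 replicates 3 and 4 below them. Bloc1s2 therefore had a log2 fold change of 0.48 without A485 replicates 3 and 4 and of -0.41 without A485 replicates 1 and 2 (edgeR adjusted p = 0.0204 and 0.0338).

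In TPM the 32 genes spanned a wide range in control embryos. Bloc1s2 was highest at 589 ± 44.4 TPM, and Tigar, Perp, Trp53, Cdkn1a and Phlda3 followed at 124 ± 14.9, 94.6 ± 15.1, 87.0 ± 8.41, 76.6 ± 33.9 and 76.1 ± 33.6 TPM (SD, n = 4). Perp, Trp53, Cdkn1a and Phlda3 did not differ from each other beyond these spreads. At the low end Zmat3 and Fbxw7 had 0.550 ± 0.172 and 0.142 ± 0.0695 TPM. The median of the 32 genes was 6.65 TPM, against 3.07 TPM for all tested genes. In A485 Phlda3 was at rank 2 with 177 ± 29.6 TPM, and Trp53 moved from rank 4 to rank 8 with 66.8 ± 12.1 TPM (SD, n = 4). Mdm2 moved from rank 11 to rank 7, Plk3 from 18 to 10, Gadd45g from 15 to 9 and Tigar from 2 to 12.

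**Figure D3:**
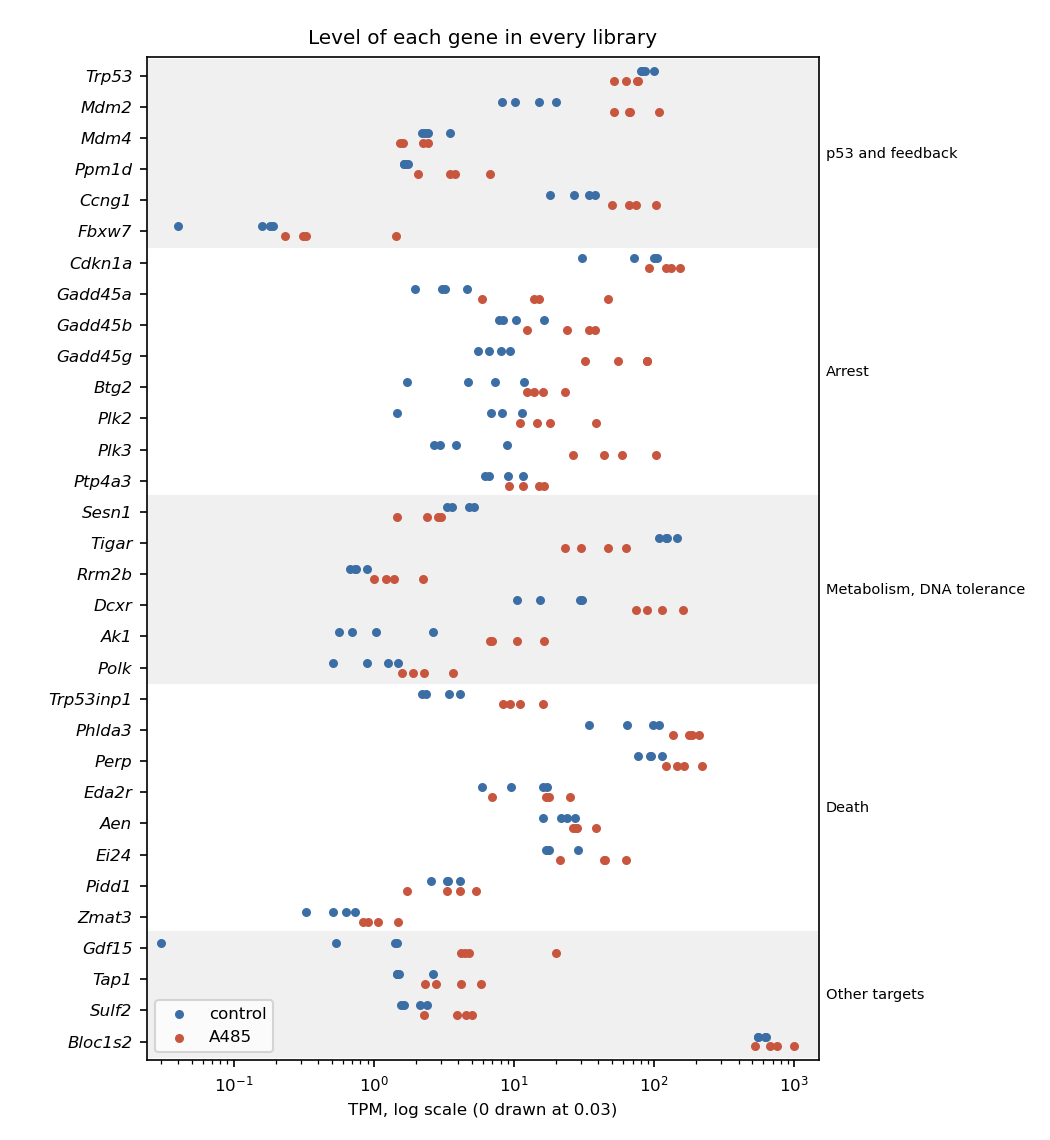
TPM of each gene (vertical axis) in each of the 8 libraries on a log scale (horizontal axis), blue for control and red for A485, with a value of 0 drawn at 0.03. Bloc1s2 lies highest in both groups, and the red points of Tigar and Trp53 lie left of their blue points.

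The libraries of each group were not interchangeable for these genes. Control replicate 2 was the lowest control library for 21 of the 32 genes, or 65.6%, against 29.1% of all tested genes, and control replicate 3 was the highest for 21, against 23.4%. Among the A485 libraries replicate 3 was the highest for 19 genes, or 59.4%, against 29.6% of all tested genes. Control replicates 1, 3 and 4 were lowest for 6, 2 and 3 of the 32 genes, against 25.6%, 23.8% and 21.4% of all tested genes, and control replicate 2 was highest for 2, against 26.3%. A485 replicates 1, 2 and 4 were highest for 5, 4 and 4 of the 32 genes, against 26.4%, 16.3% and 27.7%. The ratio of control replicate 2 to the mean of the other control libraries had a median of 0.695 over the 32 genes and 0.979 over all tested genes, and it was under 0.5 for 10 of the 32 and for 8.6% of all. The 10 genes were Fbxw7, Cdkn1a, Btg2, Plk2, Dcxr, Ak1, Polk, Phlda3, Eda2r and Gdf15.

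The pattern was not limited to genes that passed the test, since control replicate 2 was lowest for 9 of the 12 genes that did not pass. It was lowest for 12 of 24 tested genes of a list of other p53 targets and for 6 of 24 genes that act upstream of p53, the latter share being no higher than the background. Trp53 itself was 142 CPM in control replicate 2, close to the 143 CPM of control replicate 1. In the same library the pluripotency gene Nanog was at 447 CPM, against 200.5 to 298 CPM in the other control libraries, and its part in the result was not tested. Without control replicate 2, 12 of the 32 genes rose and 4 fell, where 27.5% and 20.7% of all genes did. Without A485 replicate 3, 11 of the 32 rose and 4 fell, where 27.0% and 23.7% of all genes did, so the share that rose was nearer to the background than with all libraries.

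**Figure D4:**
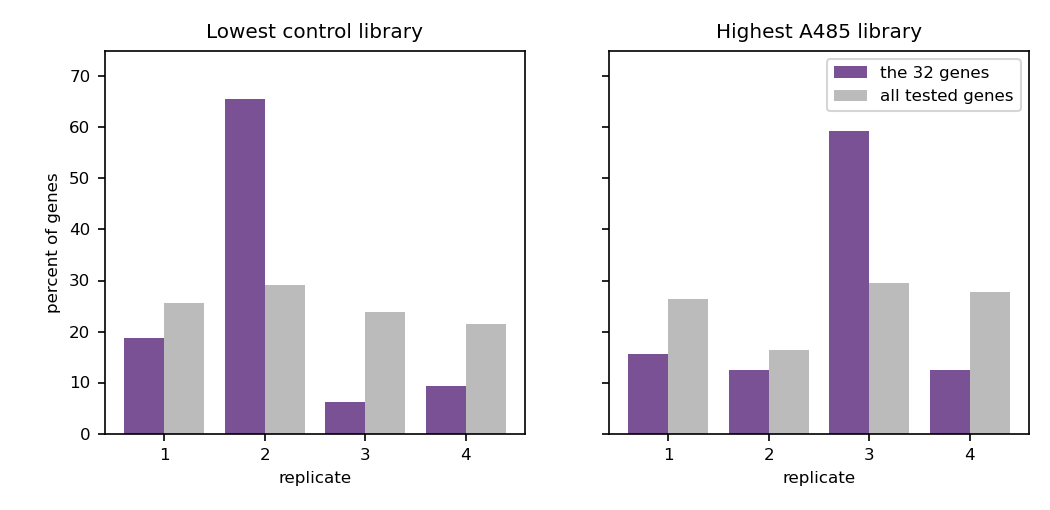
Percent of genes (vertical axis) for which each replicate (horizontal axis) was the lowest control library (left) or the highest A485 library (right), purple for the 32 genes and grey for all tested genes. Control replicate 2 was lowest for 65.6% of the 32 genes and A485 replicate 3 was highest for 59.4%, against 29.1% and 29.6% of all tested genes.

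Genes that act upstream of p53 did not move together. Of 27 listed genes 24 were tested, and 8 rose and 5 fell, shares of 33.3% and 20.8% that were near the background of 29.7% and 25.0%. Cdkn2a, which encodes the Mdm2 inhibitor Arf, and the p53 relatives Trp63 and Trp73 did not pass the filter on low counts. Atm, the kinase that signals double-strand breaks to p53, fell from 17.8 ± 2.83 CPM in control to 10.1 ± 1.87 CPM in A485 (SD, n = 4 each), with a log2 fold change of -0.82 with an SE of 0.20 and an edgeR adjusted p of 0.00552. Chek1, the checkpoint kinase downstream of ATR, had a log2 fold change of -1.25 with an SE of 0.24 and an edgeR adjusted p of 0.00155. Chek2, the checkpoint kinase downstream of ATM, had 23.1 to 39.5 CPM in control and 16.7 to 28.3 CPM in A485 and did not pass (log2 fold change -0.35 with an SE of 0.22 and an edgeR adjusted p of 0.208).

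Usp7, the deubiquitinase of Mdm2 and p53, rose by a small step and had 31.4 to 40.4 CPM in control and 51.8 to 57.4 CPM in A485 (log2 fold change 0.60 with an SE of 0.13 and an edgeR adjusted p of 0.00323). Ppp1r13b, encoding the p53 cofactor ASPP1, rose from 1.25 ± 0.108 CPM in control to 4.51 ± 0.510 CPM in A485 (SD, n = 4 each), with a log2 fold change of 1.85 with an SE of 0.26 and an edgeR adjusted p of 0.000239. Rpl5, encoding a ribosomal protein that can bind and inhibit Mdm2, fell with a log2 fold change of -0.92 with an SE of 0.19 and an edgeR adjusted p of 0.00220. Pseudogene copies make counts of ribosomal protein genes uncertain. Ep300 and Crebbp, the genes of the proteins that A485 inhibits, rose with log2 fold changes of 1.17 ± 0.36 (SE) and 0.75 ± 0.20 (SE) (edgeR adjusted p = 0.0197 and 0.00917), and Ep300 no longer passed when control replicate 3 or 4 or A485 replicate 2 was left out (edgeR adjusted p of 0.0598 to 0.0609).

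Of 25 other p53 target genes 24 were tested, and 8 rose, 3 fell and 13 did not pass, shares of 33.3% and 12.5% against the background of 29.7% and 25.0%. The median log2 fold change was 0.25, against 0.79 for the 32 genes and 0.09 for all tested genes. Pmaip1, encoding the BH3-only protein Noxa, rose from 32.5, 13.1, 33.8 and 19.2 CPM in control to 73.5, 62.6, 104 and 72.4 CPM in A485, with a log2 fold change of 1.66 with an SE of 0.30 and an edgeR adjusted p of 0.00111. Bid, another BH3-only gene, and Cdip1, a proapoptotic target, rose with log2 fold changes of 1.67 ± 0.23 (SE) and 1.49 ± 0.16 (SE) (edgeR adjusted p = 0.000243 and 5.8e-05). Bax, the effector of mitochondrial permeability, and Bbc3, encoding the BH3-only protein Puma, did not pass, with log2 fold changes of 0.02 ± 0.13 (SE) and 0.24 ± 0.34 (SE) (edgeR adjusted p = 0.893 and 0.570). Bax lay at 231 to 295 CPM in control and 245 to 301 CPM in A485. In TPM it lay at 311 to 403 in control and 407 to 504 in A485, without overlap, so its reading depends on the scaling.

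The falls were led by Steap3, a metalloreductase of iron uptake and exosome release, and by Sfn, the stratifin gene, whose product holds cells in G2. Steap3 had 50.2 to 71.5 CPM in control and 8.67 to 13.3 CPM in A485, with a log2 fold change of -2.39 with an SE of 0.19 and an edgeR adjusted p of 1.5e-05. Sfn had 3428 ± 545 CPM in control and 1089 ± 308 CPM in A485 (SD, n = 4 each), with a log2 fold change of -1.65 with an SE of 0.21 and an edgeR adjusted p of 0.000142. These targets thus fell without overlap in the same libraries in which Mdm2 and Pmaip1 rose.

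Of the 32 genes, 17 had in the authors' deposited table a log2 fold change above 0 with a q-value under 0.05 and 4 one below 0. Of the 17, 15 rose in the test used here, and the others were Btg2 and Plk2, with q-values of 0.0386 and 0.0343 in the authors' deposited table. The 4 lower genes were Trp53, Mdm4, Sesn1 and Tigar in both. Perp rose here but had a q-value of 0.0656 in the authors' deposited table.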

How the data were processed

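RNA was measured in 8 libraries of pooled morulae. Per the submitters' processing notes, the authors used HISAT2 2.2.1, RSEM 1.2.28 and DESeq2 1.40.2 with the GRCm38.p6 build. Neither the annotation nor the strandedness is stated in the labels. The deposited tables held the authors' estimated counts per gene, their TPM and FPKM values, a signal of the authors' normalized counts (counts divided by a factor per library), and a table of the authors' own comparison with log2 fold changes and q-values. Of the estimated counts 18.2% were not whole, and they were rounded first.

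Counts were tested with edgeR 4.0.16 (filterByExpr, TMM factors, robust quasi-likelihood fit, 2 groups of 4) with Benjamini-Hochberg adjustment over 12936 genes. CPM used TMM-scaled library sizes. Levels of different genes were compared by TPM. The scripts were tested on simulated data. Alternatives were DESeq2 1.42.0, limma-voom (limma 3.58.1), other scalings and filters, a replicate block, and leaving out libraries.

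The 32 genes and the other lists were chosen with earlier results of these data known. All 32 were named. Those past the threshold with at least a 2-fold change, and Trp53, Mdm2, Mdm4 and Cdkn1a, were given in every library. From each of the 2 further lists the 4 genes of smallest adjusted p were named, and Ep300, Crebbp, Bax, Bbc3, Pmaip1, Atm and Chek2. Gene coordinates and promoters are from RefSeq (GRCm38.p6), and exon overlaps from GENCODE on the same build.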

Additional observations from a re-analysis of the deposited data

Results flagged for a closer look

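In 7 of the 64 groups of 4 libraries (32 genes, 2 groups each), 1 library stood apart from the other 3 by Dixon's criterion. For independent normal values chance meets it in about 1 in 20 groups. The 64 groups come from the same libraries and CPM need not be normal, so this number is a description only. In A485 replicate 3, Fbxw7 was high at 4.05 CPM and Gdf15 was high at 18.85 CPM. In A485 replicate 4, Phlda3 was high at 235 CPM and Sulf2 was low at 7.21 CPM. Among control libraries, Plk3 was high in replicate 2 at 21.3 CPM, Ei24 in replicate 1 at 62.4 CPM and Tap1 in replicate 3 at 7.33 CPM.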

How the results depend on the processing

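The number of the 32 genes that rose was 9 to 14 when 1 library was left out, where 26.2% to 31.2% of all genes rose. Under a minimum of 5 CPM in 4 libraries 2526 of all genes rose, which was 30.8% of the 8194 genes then tested. Over all genes the median of the log2 fold change was 0.09, and it was 0.066 with DESeq2, 0.048 with limma-voom, 0.067 with RLE factors, 0.18 with upper-quartile factors, 0.37 with total-count scaling, 0.15 without a filter, 0.045 under the 5 CPM minimum, 0.049 with the replicate block, 0.049 without A485 replicates 3 and 4, and 0.073 to 0.14 leaving out 1 library. Total-count scaling gave medians of 1.08 for the 32 genes, 0.37 for the genes upstream of p53 and 0.55 for the other targets. The upstream median was -0.095 under the 5 CPM minimum and -0.0213 without A485 replicates 3 and 4. Single genes that did not pass changed sign. Bax was at -0.032 without a filter, -0.0535 without A485 replicates 1 and 2, and -0.059 to 0.074 leaving out 1 library. Its highest value over all alternatives was 0.30, and none called it (edgeR, DESeq2 and limma-voom adjusted p of 0.0512 to 0.982). Bloc1s2 was at -0.41 without A485 replicates 1 and 2 and -0.066 to 0.27 leaving out 1 library. Eda2r was at -0.065 without A485 replicates 1 and 2 and -0.082 to 0.36 leaving out 1 library. Pidd1 was at 0.080 with total-count scaling, 0.092 without A485 replicates 3 and 4 and -0.42 to 0.011 leaving out 1 library. The cause was not tested. Without A485 replicates 3 and 4, Fbxw7, Gdf15, Perp, Phlda3 and Tap1 did not pass (edgeR adjusted p of 0.0918 to 0.334). Ei24 and Bloc1s2 then did. Without A485 replicates 1 and 2, Ep300, Gadd45b, Phlda3 and Sulf2 did not pass (edgeR adjusted p of 0.0589 to 0.172). Zmat3 then did, and Bloc1s2 passed as lower. With the replicate block 18 of the 32 genes rose and 4 fell, against 27.1% and 24.5% of all genes. Fbxw7, Gadd45b and Perp did not pass with the block (edgeR adjusted p = 0.0506, 0.0934 and 0.0703), while Btg2, Ei24, Plk2, Polk and Zmat3 did. Deviations of same-numbered libraries correlated at 0.0051 to 0.10 and others at -0.13 to 0.14, and 3 of 8 libraries correlated best with their own number.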
